A study of Arabidopsis thaliana with 12 samples.

Results

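SWEET4, SWEET10 and SAG29 are 3 genes of the SWEET family of sugar transporters in Arabidopsis thaliana, and SAG29 is also known as SWEET15. Each was read by a probe set assigned to that 1 gene, and the 3 were picked from 13356 measured genes with their levels in the 4 genotypes already known. SWEET4 and SAG29 stood out for higher signal in brm-1 than in wild type, and SWEET10 for higher signal in clf-29. The levels and differences of these 3 genes are therefore given as a description, with errors and without p-values. Tests were kept for the other sugar transporter genes.

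SWEET proteins are small membrane proteins that let sugars move down their concentration gradient, into or out of a cell or vacuole. In leaves they release sucrose beside the phloem, and elsewhere they supply growing organs, nectaries, pollen and seeds. SWEET4 (AT3G28007) moves hexoses across the plasma membrane and is known for supplying sugar to tissues around the veins. SWEET10 (AT5G50790) belongs to the sucrose-carrying branch of the family, and its transcription at the shoot apex is activated by the flowering signal FT. SAG29 (AT5G13170), in the same branch, is known for high expression in senescing leaves and in seeds and for induction by osmotic stress.

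Transcript levels were measured in whole 14-day-old seedlings of wild-type Col, of the single mutants brm-1 and clf-29, and of the double mutant brm-1 clf-29, all in the Col background, with 3 arrays of each. The plants were grown at 22°C under 16 h of light and 8 h of dark. The brm-1 allele is a T-DNA null mutant of BRM, the ATPase of a SWI/SNF chromatin remodeler. The clf-29 allele is a T-DNA mutant of CLF, a methyltransferase that deposits the repressive mark H3K27me3. The comparisons asked which genes depend on BRM, which on CLF, and how the loss of both compares with the loss of either. Signals come from Affymetrix ATH1 arrays processed with MAS5 and are given in log2, where a difference of 1 is a doubling.

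Array medians lay between 7.54 and 7.66, no 2 arrays were identical, and bacterial control probe sets gave a background level of 4.71 as their 95th percentile. Replicate 3 arrays of all 4 genotypes stood apart from those of replicates 1 and 2, at -22.25 to -12.16 against -5.76 to 21.44 on the first principal component, which held 30.9% of the variance. Differences are therefore also given within each replicate number. Because whole seedlings were measured, fewer cells of a type and less RNA per cell cannot be told apart. All 5 measured markers of leaf and root lay above the background level in every genotype, with means of 14.22 to 14.63 for the leaf genes RCA and LHCB4.1, 13.63 to 14.14 for the root gene PYK10, and 7.73 to 9.16 for the root genes EXPA7 and EXPA18. None was called in any comparison between genotypes, where 0.217% to 4.99% of all genes were called. Both leaf genes nevertheless lay above Col without overlap in all 3 mutants, by 0.17 to 0.38. Of all genes, 8.92% lay above Col in this way in brm-1, 8.81% in clf-29 and 11% in brm-1 clf-29. PYK10 lay below Col without overlap in brm-1, by -0.27 (as did 11.7% of all genes), and above it in clf-29, by 0.23. The other root genes overlapped Col in both. EXPA7 differed by -0.15 in brm-1 and 0.12 in clf-29, and EXPA18 by 0.45 and -0.003. The part of these shifts in the results was not tested. No phloem, xylem or seed marker was analysed here.

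SWEET4 signal was highest in brm-1, where every array exceeded those of the other 3 genotypes. The 3 Col arrays read 5.50, 5.57 and 5.79 for replicates 1, 2 and 3, and the clf-29 arrays read 5.60, 5.58 and 5.81. In brm-1 the arrays read 7.87, 8.04 and 7.17. In brm-1 clf-29 they read 5.30, 6.61 and 6.64, so that replicate 1 lay below every Col array and the other 2 above. The order of the means was Col (5.62 ± 0.15, SD, n = 3), clf-29 (5.66 ± 0.13), brm-1 clf-29 (6.18 ± 0.77) and brm-1 (7.69 ± 0.46). The arrays of the lower 3 genotypes overlapped, with no order beyond their spread.

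The SWEET4 difference of brm-1 from Col was 2.07 ± 0.36 (standard error of the fit), a 4.21-fold higher signal. All 3 brm-1 arrays lay above all 3 Col arrays, as they did for 8.92% of all genes. Within replicate numbers 1, 2 and 3 the difference was 2.37, 2.47 and 1.38. In plants without CLF, the same loss of BRM gave 0.52 ± 0.36, with -0.30, 1.03 and 0.83 in replicates 1, 2 and 3. Loss of CLF alone gave 0.04 ± 0.36, with a 95% interval of -0.74 to 0.83. Loss of CLF in plants already without BRM gave -1.51 ± 0.36, a 2.85-fold lower signal, and the arrays of brm-1 clf-29 all lay below those of brm-1, as did 6.28% of all genes. The size of this last difference varied, being -2.57, -1.43 and -0.53 in replicates 1, 2 and 3.

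SWEET10 signal was high in clf-29 and intermediate in brm-1 clf-29. The Col arrays read 5.50, 6.10 and 6.77 for replicates 1, 2 and 3, and the brm-1 arrays read 5.65, 4.72 and 6.32. In clf-29 the arrays read 9.07, 9.23 and 10.49. In brm-1 clf-29 they read 7.59, 6.33 and 8.57. The replicate 3 array was the highest of its genotype in all 4 genotypes, so part of the spread within each was shared. The means were ordered as brm-1 (5.56 ± 0.80, SD, n = 3), Col (6.12 ± 0.64), brm-1 clf-29 (7.50 ± 1.12) and clf-29 (9.60 ± 0.78). Arrays of brm-1 and Col overlapped, as did those of Col and brm-1 clf-29, whereas clf-29 stood above all others.

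The SWEET10 difference of clf-29 from Col was 3.47 ± 0.58, an 11.1-fold higher signal. Its 3 arrays all lay above those of Col, as for 8.81% of all genes, and the difference was 3.57, 3.13 and 3.72 within replicates 1, 2 and 3. In plants without BRM, loss of CLF gave 1.93 ± 0.58, with 1.94, 1.61 and 2.25 within replicates. This is a 3.82-fold higher signal, and the 2 sets of arrays did not overlap (7.32% of all genes were higher in this way), although the closest values were 6.33 and 6.32. Loss of BRM in plants without CLF gave -2.10 ± 0.58, with -1.48, -2.90 and -1.92 within replicates. Again the arrays did not overlap, which held for 8.83% of all genes in the lower direction. Loss of BRM alone gave -0.56 ± 0.58, with a 95% interval of -1.82 to 0.70. With the replicate number as a term in the fit, the standard error of each of these SWEET10 differences was 0.31 in place of 0.58, whereas those of SWEET4 (0.36) and SAG29 (0.37) changed little.

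UFO, a floral meristem gene, was the 1 flower marker of 5 with a probe set annotated to it alone here. Its mean was above the background level in clf-29 only. Its mean lay under the background level in Col (1.52 ± 1.14, SD, n = 3), in brm-1 (3.29 ± 1.05) and in brm-1 clf-29 (4.15 ± 0.91). In clf-29 it was 5.22 ± 0.42, 1.43-fold over the background level, although the lowest array there (4.74) lay close to that level. Its arrays lay between 4.74 and 5.52 in clf-29 and between 0.72 and 2.82 in Col, and it rose by limma's test (adjusted p = 0.043). In brm-1 clf-29 the arrays read 3.11, 4.76 and 4.58, all above Col as for 11% of all genes, and the difference was 2.63 (limma adjusted p = 0.0708). In brm-1, where the SWEET10 mean was lowest, UFO differed from Col by 1.77 (adjusted p = 0.343). The genotype where the UFO mean passed the background level was the one with the highest SWEET10 signal. The part of floral tissue in the SWEET10 result was not tested.

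SAG29 signal was higher in all 3 mutants than in Col. The Col arrays read 6.22, 6.28 and 7.22 for replicates 1, 2 and 3. In clf-29 they read 8.58, 8.28 and 7.27. In brm-1 they read 9.27, 9.25 and 8.99, and in brm-1 clf-29 10.41, 10.11 and 8.90. Replicate 3 was the highest of the Col arrays and the lowest in each mutant. The order of the means was Col (6.57 ± 0.56, SD, n = 3), clf-29 (8.04 ± 0.69), brm-1 (9.17 ± 0.16) and brm-1 clf-29 (9.81 ± 0.80). Col and clf-29 were separated by 7.22 against 7.27 only, clf-29 and brm-1 did not overlap, and brm-1 and brm-1 clf-29 overlapped.

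Loss of BRM went with higher SAG29 signal in both backgrounds. Against Col the difference was 2.60 ± 0.41, a 6.05-fold higher signal, and against clf-29 it was 1.76 ± 0.41, or 3.39-fold. These 2 comparisons share no arrays. Within replicates 1, 2 and 3 the first was 3.05, 2.97 and 1.77, and the second 1.83, 1.83 and 1.63. In the second, the groups did not overlap, as for 7.19% of all genes in the higher direction.

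Loss of CLF alone gave a SAG29 difference of 1.47 ± 0.41, which differed between replicate numbers. It was 2.36 and 2.0 in replicates 1 and 2 and 0.05 in replicate 3. With replicates 1 and 2 only, the estimate was 2.18. In plants without BRM, loss of CLF gave 0.64 ± 0.41 (95% interval -0.25 to 1.52), with 1.14, 0.86 and -0.09 in replicates 1, 2 and 3. Loss of both genes together gave 3.23 ± 0.41, a 9.40-fold higher signal than in Col. All arrays of brm-1 clf-29 lay above those of Col, as for 11% of all genes, and with replicates 1 and 2 only the estimate was 4.01.

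**Figure D1:**
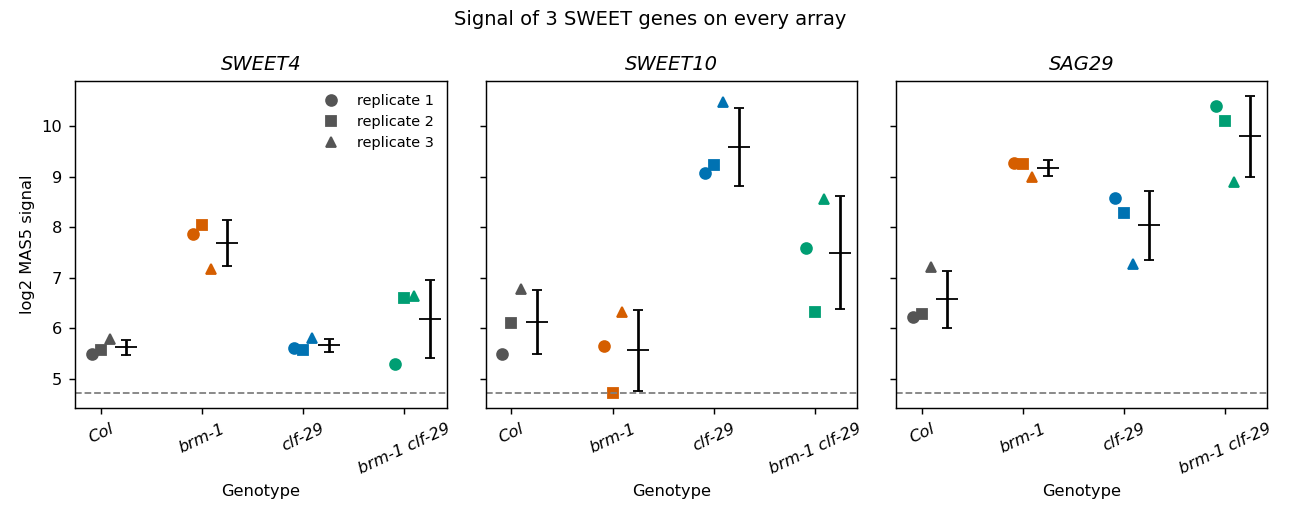
Log2 MAS5 signal (vertical axis) of SWEET4, SWEET10 and SAG29 on each of the 12 arrays, by genotype (horizontal axis); circles, squares and triangles are replicates 1, 2 and 3, black marks are the mean with SD, and the dashed line is the background level of 4.71. SWEET4 stands high in brm-1 (7.17 to 8.04), SWEET10 in clf-29 (9.07 to 10.49), and SAG29 is above Col in all 3 mutants.

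**Figure D2:**
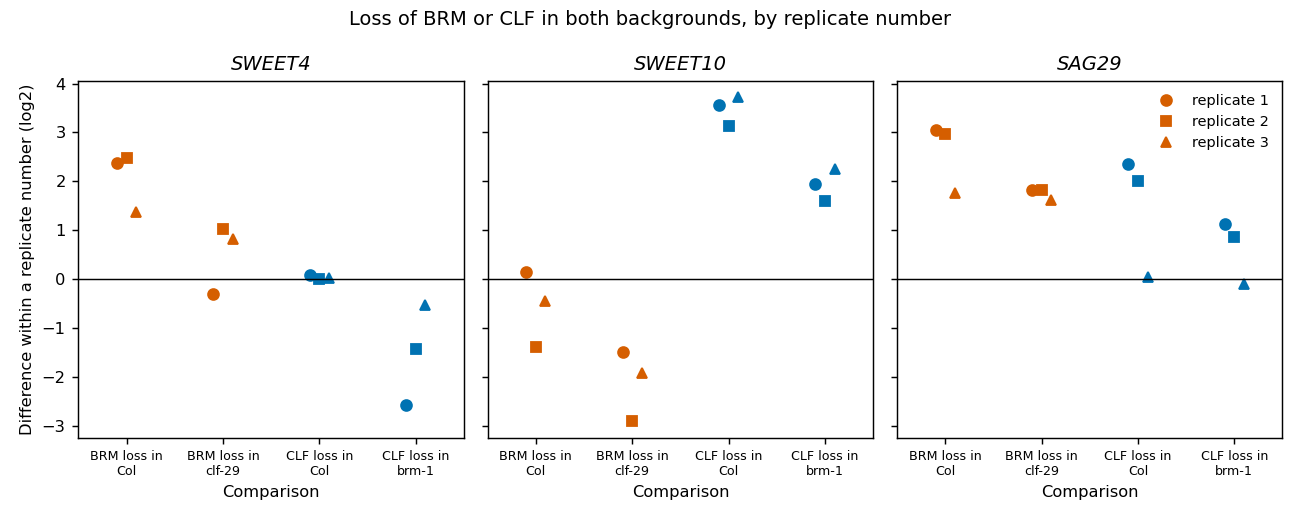
Log2 difference within a replicate number (vertical axis) for loss of BRM (orange) and loss of CLF (blue) in each background (horizontal axis), with 1 point per replicate. The SWEET10 differences for loss of CLF lie between 3.13 and 3.72 in Col and between 1.61 and 2.25 in brm-1, and the SAG29 differences for loss of CLF are near 0 in replicate 3 (0.05 and -0.09).

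The order of the genotypes differed among the 3 genes. To ask whether loss of both regulators added up, the difference of brm-1 clf-29 from Col was set beside the sum of the single-mutant differences. For SWEET4 the differences of brm-1 and clf-29 from Col summed to 2.12, and brm-1 clf-29 differed from Col by 0.56, which left an interaction of -1.55 ± 0.51. That interaction varied between replicates 1, 2 and 3, at -2.67, -1.44 and -0.55. For SWEET10 the sum was 2.91 and the observed difference 1.37, an interaction of -1.54 ± 0.82. It was -1.63, -1.52 and -1.47 in replicates 1, 2 and 3, and its standard error with the replicate number as a term was 0.44. For SAG29 the sum was 4.07 and the observed difference 3.23, an interaction of -0.83 ± 0.57, with -1.22, -1.14 and -0.14 in the replicates. These genes were chosen for high signal in a single mutant, which enters the interaction with a minus sign, so negative values are favoured by the choice. All 3 interactions share the same 12 arrays. The SWEET10 mean lay only 1.41 above the background level in Col and 0.85 above it in brm-1, where the lowest array read 4.72. This limits how large a fall on loss of BRM could be seen from Col. Over all genes limma called 0 of 13356 for the interaction (0%), also with the replicate number as a term, and 754 had an unadjusted p under 0.05. Leaving out 1 array moved the SWEET4 interaction to between -1.11 (without brm-1 clf-29 replicate 1) and -1.815 (without brm-1 replicate 3). The interaction moved to between -0.96 (without brm-1 clf-29 replicate 2) and -2.08 for SWEET10. For SAG29 it moved to between -0.38 (without brm-1 clf-29 replicate 3) and -1.22.

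**Figure D3:**
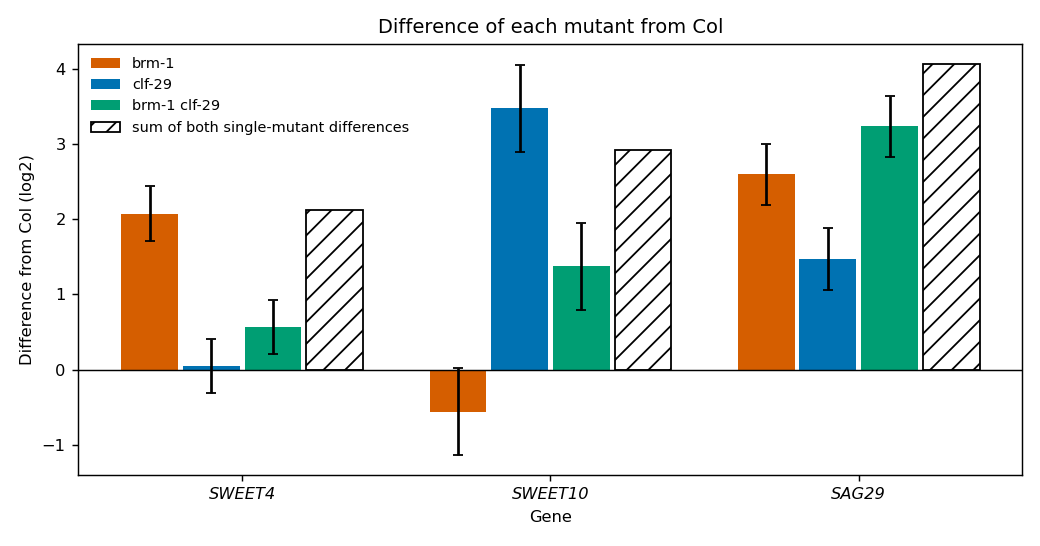
Log2 difference from Col (vertical axis) of each mutant for SWEET4, SWEET10 and SAG29 (horizontal axis); bars are estimates with standard errors of the fit, and the hatched bar is the sum of both single-mutant differences. The bar of brm-1 clf-29 is lower than the hatched bar for each gene (0.56 against 2.12, 1.37 against 2.91, and 3.23 against 4.07).

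Genes whose pattern over the 12 arrays was most like each of the 3 were found by Pearson correlation, among the genes brighter than the median of 7.13. SWEET10 was most like AT1G51270 (r = 0.979), whose means were 6.91 in Col, 6.82 in brm-1, 7.87 in clf-29 and 7.33 in brm-1 clf-29. The next were AT2G27730, AT1G73630, AT1G55840 and AT1G27030 (r from 0.905 to 0.920). SAG29 was most like AT1G25530 (r = 0.946), with means of 8.38 in Col, 9.34 in brm-1 and 9.91 in brm-1 clf-29, followed by AT1G57770, AT3G29180, AT1G80130 and AT3G22550 (0.937 to 0.940). SWEET4 was less closely matched, with AT5G03120 (0.891), AT3G52155, AT1G64510, AT3G16370 and AT5G26270 (down to 0.878). The correlations run over arrays of 4 genotypes, so they carry the differences between genotypes and between replicate numbers. The differences themselves were smaller: AT1G51270 was 0.95 higher in clf-29 than in Col, against 3.47 for SWEET10, and AT1G25530 was 1.53 higher in brm-1 clf-29, against 3.23 for SAG29.

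The nearest measured neighbours on the chromosome were examined for the same differences. SWEET10 lies directly between AT5G50780 and SWEET13, another sucrose transporter gene of its branch. In clf-29, SWEET13 differed from Col by 0.58 ± 0.26 (limma adjusted p = 0.414) and AT5G50780 by 0.35 (adjusted p = 0.692), so neither passed the test. On one side of SWEET4, AT3G28020 (1 gene between) was not called in brm-1 (adjusted p = 0.971). On the other, AT3G27980 (3 genes between) lay under the background level in every genotype, which leaves no measured neighbour there to compare. Near SAG29, AT5G13140 (3 genes between) fell in brm-1 clf-29 (-0.64, adjusted p = 0.0211), opposite to the SAG29 difference, and AT5G13200 (9 genes between) was not called (-0.93, adjusted p = 0.0782).

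Among the other SWEET genes none was called higher in a mutant in the fit over all 12 arrays without the replicate number as a term. SWEET1 and SWEET11 fell in some. Of 17 family members 16 were measured, and the 13 others were tested across all genes. SWEET1, a plasma membrane glucose transporter gene, fell in brm-1, where 1.17% of all genes were called lower. Its arrays read 9.40, 9.45 and 9.25 in Col and 8.57, 8.42 and 8.26 in brm-1. All brm-1 arrays lay below all Col arrays, as for 11.7% of all genes, and the difference was -0.95 ± 0.21 (limma adjusted p = 0.0392). It fell as well in brm-1 clf-29 against clf-29 (-1.03 ± 0.21, adjusted p = 0.0317), with arrays of 9.23, 8.34 and 8.76 against 9.93, 10.06 and 9.44. Here 0.981% of all genes were called lower.

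Both SWEET1 calls were sensitive to leaving out 1 array. Leaving out any 1 Col or brm-1 array ended the call in brm-1, and leaving out clf-29 replicate 1 or 2 or brm-1 clf-29 replicate 2 or 3 ended that against clf-29. With all arrays and the replicate number as a term they passed (adjusted p = 0.00727 and 0.00537). In clf-29 alone SWEET1 differed from Col by 0.44 ± 0.21 and did not pass the test (adjusted p = 0.427), and in brm-1 clf-29 against Col by -0.59 ± 0.21 (adjusted p = 0.137, or 0.0472 with the replicate number as a term).

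SWEET11, which with SWEET12 releases sucrose for phloem loading in leaves, fell in the double mutant relative to Col (-0.88 ± 0.20, adjusted p = 0.0251), where 2.59% of all genes were called lower. Its arrays read 11.42, 11.68 and 11.67 in Col and 10.49, 10.46 and 11.17 in brm-1 clf-29, with no overlap, as for 12.8% of all genes in the lower direction. In brm-1 it differed by -0.30 ± 0.20 (adjusted p = 0.607) and in clf-29 by -0.02 ± 0.20 (adjusted p = 0.984). Leaving out any Col array, or brm-1 clf-29 replicate 1 or 2, ended the call. SWEET12 was not analysed here.

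Of the remaining SWEET genes none was called in any of the 5 comparisons between genotypes in the fit over all 12 arrays without the replicate number as a term. SWEET2 differed from Col by 0.52 ± 0.36 in clf-29 (adjusted p = 0.647, or 0.0624 with the replicate number as a term), and it was called higher there with replicate 3 as a batch term and with replicates 1 and 2 only. Those above the background level in every genotype were SWEET2, SWEET13, SWEET14 and the vacuolar fructose transporter genes SWEET16 and SWEET17. SWEET3, SWEET6 and SWEET9 lay under the background level in some genotypes, and SWEET5, SWEET7 and the pollen gene SWEET8 in all, so that no direction can be given for the latter. In brm-1 the arrays of 0 of the 13 lay all above those of Col and those of 2 (SWEET1 and SWEET3) all below, as for 8.92% and 11.7% of all genes. In clf-29 1 (SWEET13) lay above and 1 (SWEET3) below, as for 8.81% and 9.21% of all genes. In brm-1 clf-29 1 (SWEET13) lay above and 4 (SWEET1, SWEET3, SWEET5 and SWEET11) below, as for 11% and 12.8% of all genes. Of these SWEET5 was under the background level throughout, and SWEET3 was under it in clf-29. The median difference of the 7 genes above the background level in every genotype was -0.30 in brm-1, 0.44 in clf-29 and -0.06 in brm-1 clf-29. Over all 13, dim genes included, it was -0.16, 0.31 and -0.59, beside -0.04, -0.00 and -0.02 over all genes. The 3 comparisons share the Col arrays.

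**Figure D4:**
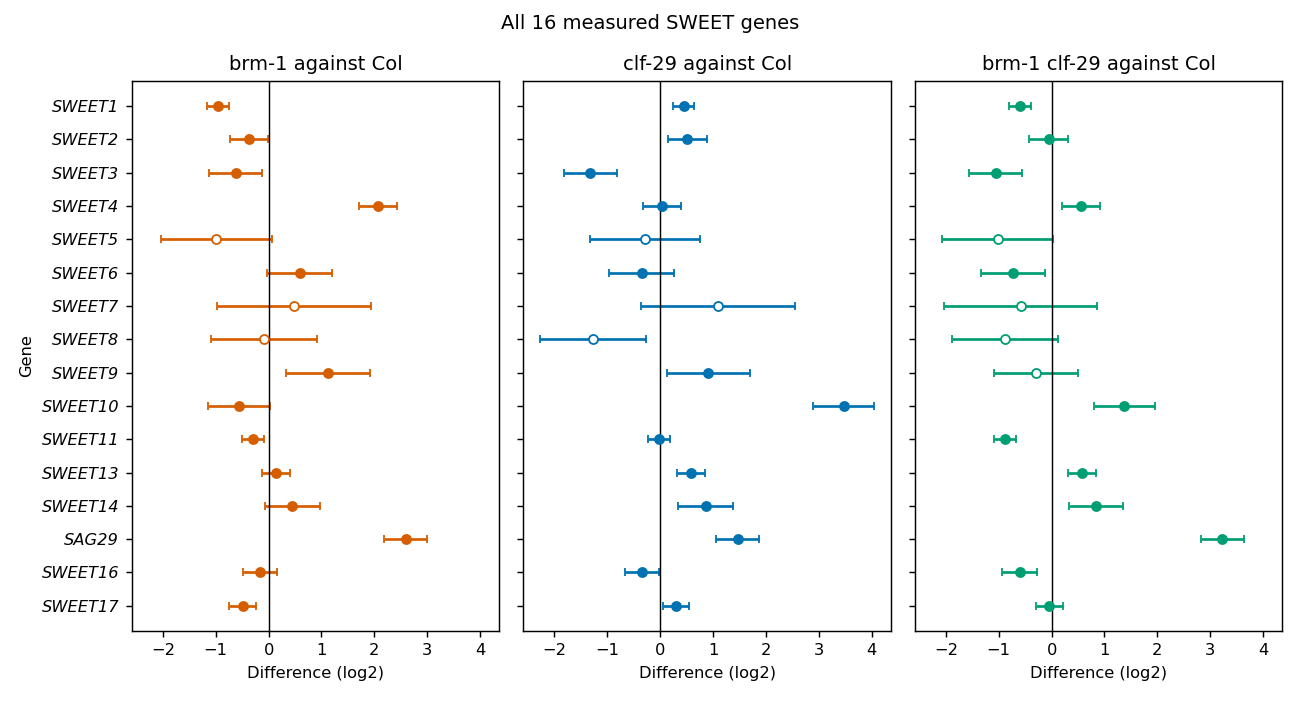
Log2 difference from Col (horizontal axis) with its standard error for each of 16 measured SWEET genes (vertical axis) in both single mutants and the double mutant; open circles mark genes under the background level in both genotypes. SWEET4 (2.07) and SAG29 (2.60) lie farthest to the right in brm-1 and SWEET10 (3.47) in clf-29, while SWEET1 lies left of 0 in brm-1 (-0.95) and SWEET11 in brm-1 clf-29 (-0.88).

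Other sugar transporter genes were counted by family, first in the fit without the replicate number as a term. With the 13 SWEET genes, 25 genes of 6 lists were measured, and 7 of them have no symbol in the reference tables. In brm-1 none rose and 1 fell (SWEET1), when limma called 0.696% of all genes higher, 1.17% lower and 1.86% in all. In clf-29 limma called none (of all genes 0.943%, with 0.547% higher and 0.397% lower). There 2 of the 25 had an unadjusted p under 0.05, beside 1603 of all 13356 genes. In brm-1 clf-29 none rose and 2 fell, SWEET11 and TMT1, with 2.4% of all genes called higher, 2.59% lower and 4.99% in all. In brm-1 clf-29 against clf-29 none rose and 1 fell (SWEET1), with 0.487% of all genes called higher, 0.981% lower and 1.47% in all. In brm-1 clf-29 against brm-1 limma called none (of all genes 0.217%, with 0.157% higher and 0.0599% lower). In that comparison 1 had an unadjusted p under 0.05, beside 1305 of all 13356 genes. The median difference of the 25 genes from Col was -0.08 in brm-1, 0.18 in clf-29 and -0.21 in brm-1 clf-29.

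TMT1, which loads sugars into the vacuole, read 10.24, 10.31 and 10.24 in Col and 9.83, 9.63 and 9.82 in brm-1 clf-29. These did not overlap, as for 12.8% of all genes in the lower direction. The difference was -0.50 ± 0.12 (limma adjusted p = 0.0324), and leaving out any Col array, or brm-1 clf-29 replicate 1 or 2, ended the call. In brm-1 TMT1 differed from Col by -0.47 ± 0.12 (adjusted p = 0.0817). Its relative TMT2 differed the other way in brm-1, by 0.73 ± 0.17 (adjusted p = 0.0572), with arrays of 9.32, 9.14 and 8.95 against 8.57, 8.37 and 8.29. SFP2, of a family related to vacuolar sugar exporters, differed from Col by 0.90 ± 0.35 in brm-1 (adjusted p = 0.282) and by 1.21 ± 0.35 in brm-1 clf-29 (adjusted p = 0.0716).

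With the replicate number as a term, more of these transporter genes passed limma's test, as did more of all genes. The shares of all genes given here count calls in either direction. In brm-1 3 rose and 2 fell (4.78% of all genes), with TMT2 (adjusted p = 0.00254) and SFP2 (0.00257) among those that rose and SWEET1 and TMT1 as those that fell. In clf-29 2 rose and 0 fell (3.48% of all genes). Those that rose were SFP1 (0.44, adjusted p = 0.00965) and SFP2 (0.71, adjusted p = 0.0152). In brm-1 clf-29 3 rose and 5 fell (10.4% of all genes). TMT2 (adjusted p = 0.0236) and SFP2 (0.000195) were among those that rose, and SWEET1, SWEET11, SWEET16 and TMT1 among those that fell. In brm-1 clf-29 against clf-29 1 rose and 4 fell (4.07% of all genes), the latter being SWEET1, SWEET2, SWEET11 and SFP1.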

How the data were processed

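RNA of 12 Arabidopsis seedling samples was hybridised to Affymetrix ATH1 arrays, 1 array per biological replicate per the labels. The deposited values are log2 MAS5 signals, which the authors computed with the affy package, with no version given, and whose 2% trimmed mean is 500.0 on each array. Of 22810 probe sets, 13513 were annotated with 1 gene, 503 with several and 8794 with none here. The annotation was old, and 13436 probe sets matched the RefSeq gene table of TAIR10.1, which served for names and gene order. The probe set with the highest mean stood for each of the 146 genes with several, leaving 13356 genes. Listed genes without a probe set annotated with 1 gene in this annotation count as not measured, whether or not the array holds a probe set for them.

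One mean per genotype was fitted with limma 3.58.1 (R 4.3.3; lmFit, eBayes with trend, 8 residual degrees of freedom) over all 12 arrays. Two-sided p-values were adjusted by the Benjamini-Hochberg method over 13356 genes. A gene was called where its adjusted p was below 0.05. The background level was the 95th percentile of 27 bacterial control probe sets, and 3 arrays per genotype limit the precision. The script was tested on simulated data.

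The members and the gene lists were chosen with earlier results of these data known. Named were SWEET4, SWEET10 and SAG29, each called gene of a list, at most 3 uncalled genes of a list by unadjusted p in brm-1, the 5 most alike genes and the nearest measured neighbours. SFP1 and the uncalled SWEET genes beyond 3 were named after their values were seen. Arrays of the same replicate number deviated together (correlations of 0.20 to 0.71 in 18 of 18 pairs). Differences within each number and a fit with the number as a term are therefore given as well. The main fit has no such term, so its standard errors, adjusted p-values and counts ignore this pairing. The study's criterion was a 1.5-fold change, which was tried without a test as an alternative beside other scalings, filters, variance models, a batch term and leaving out arrays. The targeted genes BRM and CLF were not analysed here, and the labels were not checked against them.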

Additional observations from a re-analysis of the deposited data

How the results depend on the processing

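The differences of SWEET4, SWEET10 and SAG29 were recomputed under the alternatives. Those that change only the estimate of spread, the set of other genes or a balanced term cannot move a difference of means, and 117 of 333 values were fixed in this way. Of the other 216, 213 kept their sign and 4 moved by over 1 SD. The 3 changes of sign were all of the SWEET4 difference of clf-29 from Col (0.04). With replicates 1 and 2 only, the SAG29 difference from Col was 2.18 in clf-29 and 4.01 in brm-1 clf-29, that of SWEET4 in the double mutant from brm-1 was -2.0, and the SWEET4 interaction was -2.06. Leaving out 1 array in turn gave 3.03 to 3.80 for SWEET10 in clf-29, 1.90 to 2.33 for SWEET4 in brm-1 and 2.42 to 2.92 for SAG29 in brm-1. The SWEET10 difference of brm-1 clf-29 from Col ranged more widely, from 0.84 without its replicate 3 to 1.96 without its replicate 2. No SWEET4 value could be had among genes above the median, which leave it out.

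Counts of called transporter genes among 25 moved more. For brm-1, clf-29 and the double mutant against Col, and the double mutant against clf-29, the counts reported were 1, 0, 2 and 1. With the replicate block, the paired fit, they were 5, 2, 8 and 5, when 4.78%, 3.48%, 10.4% and 4.07% of all genes were called. With replicate 3 as a batch term they were 5, 3, 8 and 5. The block left the member differences as they were. With replicates 1 and 2 only they were 4, 4, 7 and 4, and 1 was called in the double mutant against brm-1 (0 reported). The 1.5-fold criterion with no test gave 9, 6, 15, 8 and, in that last comparison, 7. The share of all genes passing is not given for the alternatives other than the block. Their counts therefore show how the calls move and nothing particular to transporters. Without a variance trend none of the 25 was called in brm-1, in brm-1 clf-29 or against clf-29 (0 each, from limma). With the trend 5, 7 and 3 had an unadjusted p under 0.05 from limma, beside 1746, 2445 and 1723 of all 13356 genes. In brm-1 the count was 2 after quantile normalization, median centring, the filter on dim genes or robust estimation, and 3 with array weights or only the compared genotypes. In brm-1 clf-29 it was 1 after median centring and 5 with array weights. Against clf-29 it was 2 with the filter, robust estimation or array weights, and 0 with only the compared genotypes. Leaving out 1 array gave 0 in brm-1 whichever Col or brm-1 array it was, 0 to 4 in brm-1 clf-29 and 0 to 1 against clf-29. The causes were not tested.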

Other observations

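Genes of sugar metabolism and of the processes the 3 transporters are known from were thinly covered by the probe sets annotated with 1 gene here. Of 21 leaf senescence genes 3 were measured, and limma called none in any comparison. Of all genes it called 1.86% in brm-1, 0.943% in clf-29 and 4.99% in brm-1 clf-29 against Col. With so few genes measured, the absence of calls here says little about these processes. WRKY53, a transcription factor of early leaf senescence, differed from Col by 0.89 ± 0.52 in brm-1 (adjusted p = 0.527) and by 0.72 ± 0.52 in brm-1 clf-29 (adjusted p = 0.537). For replicates 1, 2 and 3 its arrays read 7.6, 7.6 and 9.89 in Col and 8.91, 8.87 and 9.98 in brm-1. The Col replicate 3 array thus lay far above the other Col arrays, and brm-1 was close to Col in replicate 3 only. WRKY6 differed the other way, by -0.28 ± 0.35 in brm-1 (adjusted p = 0.821) and by -0.74 ± 0.35 in brm-1 clf-29 (adjusted p = 0.288). The median of the 3 genes was 0.03 in brm-1 and -0.40 in brm-1 clf-29. SAG101 differed by 0.03 in brm-1 and by -0.85 ± 0.25 in clf-29 (adjusted p = 0.168), where SAG29 was higher than in Col. Of 12 genes of photoperiodic flowering 2 were measured, and neither was called, beside the same shares of all genes. FD, the partner of FT at the shoot apex, differed by -0.90 ± 0.37 in clf-29 (adjusted p = 0.350), and GI by -0.09. The FD arrays of clf-29 read 5.55, 4.55 and 4.36 for replicates 1, 2 and 3. Their mean of 4.82 lay only 0.11 above the background level, and replicates 2 and 3 lay under it. FD was also 0.84 higher in brm-1 clf-29 than in clf-29 (adjusted p = 0.359). An unadjusted p under 0.05 from limma was reached by SAG101 and FD in clf-29, beside 1603 of all 13356 genes. FD reached it in brm-1 clf-29 against clf-29 as well, beside 1723 of all 13356 genes. Both FD comparisons use the same clf-29 arrays, which lay near or under the background level in replicates 2 and 3.

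Of 17 genes of sucrose cleavage and synthesis 3 were measured, and limma called none. Of all genes it called 1.86% in brm-1 against Col and 1.47% in brm-1 clf-29 against clf-29. The lowest unadjusted p belonged to a locus without a symbol in the reference tables, AT1G62660. It differed by -0.55 ± 0.17 in brm-1 against Col (unadjusted p = 0.00613, adjusted p = 0.146). In brm-1 clf-29 against clf-29 it differed by -0.56 ± 0.17 (unadjusted p = 0.00527, adjusted p = 0.150). The arrays did not overlap in either, as for 11.7% and 8.83% of all genes in the lower direction. The sucrose phosphate synthase gene SPS4 differed from Col by 0.54 ± 0.33 in brm-1 (adjusted p = 0.555), and the gene CWINV6 by 0.22 ± 0.33 (adjusted p = 0.856). No gene of the lists for sucrose symporters, plastid sugar transporters, sugar starvation or the response to abscisic acid and osmotic stress was analysed here.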
